A study of Mus musculus with 6 samples.

Results

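Serum response factor (SRF) and the coactivators that decide which of its target genes are read were followed in cells isolated from mouse jawbone periosteum, the progenitor-bearing layer that covers bone. The 7 genes were taken by name: Srf, the coactivator genes Mrtfa, Mrtfb and Myocd, and the ternary complex factor genes Elk1, Elk3 and Elk4. All 7 were found among the 18002 listed genes, with Mrtfa and Mrtfb under these names rather than as Mkl1 and Mkl2, and 6 of them had enough reads to be tested. Myocd was not tested, except in the setting without a read filter. The cells had been cultured for 48 h as self-assembled spheroids (3 libraries) or as a flat monolayer (3 libraries). The labels name no genotype, strain, age or added agent for either format, and no difference between the formats other than culture as spheroids or as a monolayer. Nor do they tell if replicate libraries stem from different cultures or animals, and the spread on which every p-value rests may therefore be technical. Library totals ranged from 21701046 to 21889110 estimated reads.

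SRF is a MADS box protein that binds the CArG box, a short DNA element in the promoters of actin, muscle and immediate early genes. On its own it activates little, and its partners set the output. Myocardin-related proteins (Mrtfa, Mrtfb) are held in the cytoplasm by actin monomers and enter the nucleus when actin polymerises, which ties cytoskeletal genes to cell tension. Myocardin (Myocd) is the constitutively nuclear family member of heart and smooth muscle. The ternary complex factors (Elk1, Elk3, Elk4) are ETS proteins that bind beside SRF and are switched on by ERK phosphorylation, and they compete with the myocardin family for the same face of SRF.

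The Srf gene carries the element that its own protein binds, and its upstream sequence is shown because it holds CArG boxes and an ETS core. Binding of any factor to them was not measured. It is printed 5′ to 3′ on the minus strand of chr17:46556163-46556412 (GRCm38.p6, RefSeq), the 250 bases before the transcription start that the RefSeq promoter table uses. The span that RefSeq gives for the whole gene reaches further upstream, so this window lies inside it. Capitals mark, in this order, the ETS core CCGGAAG and both CArG boxes.
Srf: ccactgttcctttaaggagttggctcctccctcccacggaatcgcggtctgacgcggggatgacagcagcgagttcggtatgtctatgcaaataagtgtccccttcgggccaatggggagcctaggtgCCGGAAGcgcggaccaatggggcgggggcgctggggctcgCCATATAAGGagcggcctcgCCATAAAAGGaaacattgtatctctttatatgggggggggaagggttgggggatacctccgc
The CArG boxes, CCATATAAGG and CCATAAAAGG, begin 82 and 62 bases before the start, and the ETS core begins 122 bases before it. Both strands of promoter windows, from 250 bases before to 50 after a start, were searched for the CArG box and for CCGGAAG. The windows of a whole chromosome were left out of the search, so the counts are not genome-wide. A CArG box stood in a window of 488 of the 27025 RefSeq genes searched (1.81%), and CCGGAAG in a window of 2683 (9.93%). Of the 6 members with a window, which leaves out Myocd, only Srf held a CArG box, and Srf and Elk4 held CCGGAAG.

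Spheroids held less mRNA of Srf and Mrtfa and more of Mrtfb and of the 3 ternary complex factors. In edgeR's quasi-likelihood test with Benjamini-Hochberg adjustment over 13708 genes, 4 of the 6 tested members were higher and 2 were lower in spheroids at an adjusted p under 0.05. Calls were common in these data, at 37.1% of all tested genes higher and 37.1% lower, or 74.2% in either direction, so being called sets no member apart. The groups did not overlap for any of the 6 tested members, against 75.8% of all tested genes.

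Srf (gene ID 20807, chromosome 17, 46546838 to 46558267) had 55.1, 55.5 and 55.7 CPM (reads scaled to library size) in spheroids, against 102.3, 98.4 and 93.5 CPM in monolayers. Every spheroid library lay far below every monolayer library, and the spheroid values were the tighter set. The mean was 55.4 ± 0.322 CPM in spheroids and 98.1 ± 4.39 CPM in monolayers (SD, n = 3 each), a 1.77-fold lower level. On the log2 scale the change was -0.82 ± 0.04 (SE; edgeR adjusted p = 8.86e-19). A log2 fold change at or below that of Srf was found for 8.58% of tested genes.

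Mrtfa (gene ID 223701, chromosome 15, 81012281 to 81190736), the main actin-sensing coactivator gene here, stood at 63.9, 65.8 and 65.3 CPM in spheroids, against 110.8, 106.9 and 111.0 CPM in monolayers. Its change was close to that of Srf, at a log2 fold change of -0.75 ± 0.04 (adjusted p = 8.35e-19), or 1.69-fold lower, and 9.66% of tested genes lay at or below it. Mrtfb (gene ID 239719, chromosome 16, 13256056 to 13417529), whose protein responds to actin in the same way, had 32.8, 32.6 and 31.6 CPM in spheroids, against 29.0, 27.3 and 29.4 CPM in monolayers. That is a small rise, of 1.13-fold (log2 fold change 0.18 ± 0.05, adjusted p = 0.00248), with no overlap between the groups.

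Myocd (gene ID 214384, chromosome 11, 65173608 to 65269989) was close to undetected in both formats. It had 1, 0 and 1 reads in spheroids, against 4, 4.01 and 2 estimated reads in monolayers. The pooled ratio of 2 to 10 reads, scaled by depth, was 0.201 with an exact 95% interval from 0.0214 to 0.944, which covers counting error only. Without a read filter Myocd could enter the edgeR test. There 2 members were called lower, Srf and Mrtfa, so Myocd did not pass. The spheroid library with 0 reads allows a level of up to 0.138 CPM, 3 reads of its total.

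**Figure D1:**
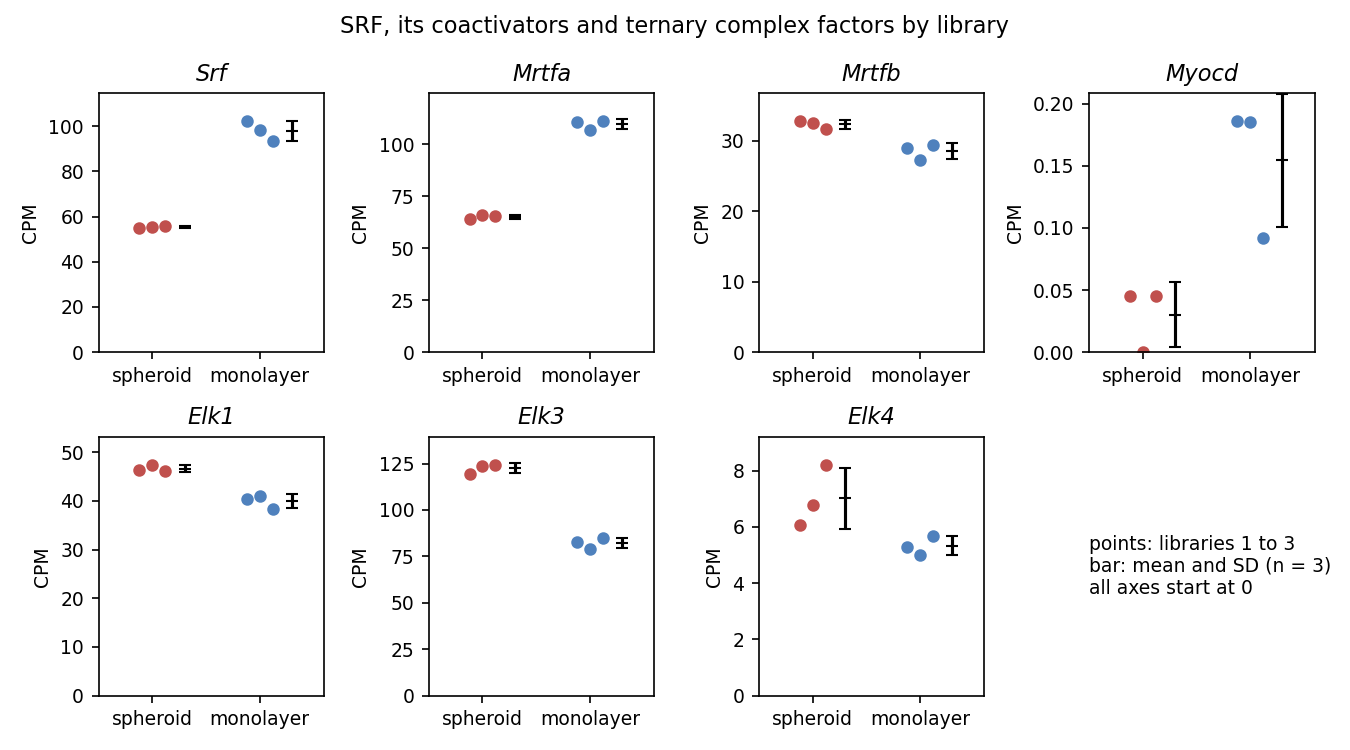
CPM of each gene in the 3 spheroid libraries (left, red) and the 3 monolayer libraries (right, blue), with the mean and SD beside the points, each axis starting at 0. Srf and Mrtfa sit lower in spheroids, Mrtfb and the 3 Elk genes sit higher, and Myocd is under 0.2 CPM in every library.

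All 3 ternary complex factor genes rose in spheroids. Elk3 (gene ID 13713, chromosome 10, 93247415 to 93311159), whose protein represses SRF targets until ERK phosphorylates it, had 119.5, 123.5 and 124.4 CPM in spheroids, against 82.9, 79.3 and 84.7 CPM in monolayers. It showed the largest rise of the 7 genes, 1.49-fold, or 0.57 ± 0.03 on the log2 scale (adjusted p = 7.07e-16). A log2 fold change at or above it was found for 19.7% of tested genes. Elk1 (gene ID 13712, chromosome X, 20933395 to 20950608), the classical ERK-responsive activator, stood at 46.3, 47.4 and 46.2 CPM in spheroids, against 40.4, 41.1 and 38.4 CPM in monolayers. Its rise was 1.17-fold (log2 fold change 0.22 ± 0.04, adjusted p = 3.79e-05).

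Elk4 (gene ID 13714, chromosome 1, 132007577 to 132026448), which encodes the factor also called SAP-1, had the lowest level and the largest SE of the 3. It had 6.07, 6.77 and 8.21 CPM in spheroids, against 5.30, 4.99 and 5.67 CPM in monolayers. Spheroid replicate 3 was the highest library, and the gap between the groups was small. The log2 fold change was 0.40 ± 0.12 (adjusted p = 0.00286), and without spheroid replicate 3 it was 0.27 with an adjusted p of 0.0549, above the threshold.

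Levels of different genes were compared in the authors' FPKM, which are scaled by gene length. In spheroids the order of the FPKM means was Elk3 (31.1 ± 0.402), Mrtfa (15.4 ± 0.168), Srf (13.9 ± 0.232), Elk1 (13.5 ± 0.137), Mrtfb (3.997 ± 0.139), Elk4 (1.89 ± 0.406) and Myocd (0.00667 ± 0.00577), each with the SD of 3 libraries. In monolayers it was Mrtfa (25.4 ± 0.544), Srf (24.3 ± 1.06), Elk3 (20.3 ± 0.830), Elk1 (11.3 ± 0.369), Mrtfb (3.48 ± 0.141), Elk4 (1.33 ± 0.0819) and Myocd (0.0267 ± 0.0153). Elk3 thus stood above Mrtfa and Srf in spheroids and below both in monolayers. No libraries of neighbours in either order overlapped, except those of Mrtfa and Srf in monolayers.

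The mix within each family also differed. Mrtfa made up 79.3% ± 0.752 of the summed FPKM of the myocardin family in spheroids and 87.9% ± 0.188 in monolayers, while Mrtfb made up 20.6% ± 0.743 in spheroids and 12.03% ± 0.239 in monolayers (SD, n = 3 each). The family sum was 19.4 ± 0.0404 FPKM in spheroids and 28.9 ± 0.662 FPKM in monolayers. For the ternary complex factors the sum was 46.5 ± 0.735 FPKM in spheroids and 33.0 ± 0.555 FPKM in monolayers, with Elk3 at 66.9% ± 0.204 of it in spheroids and 61.7% ± 1.501 in monolayers. The sums therefore moved in opposite directions, and no spheroid library overlapped a monolayer library in either.

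**Figure D2:**
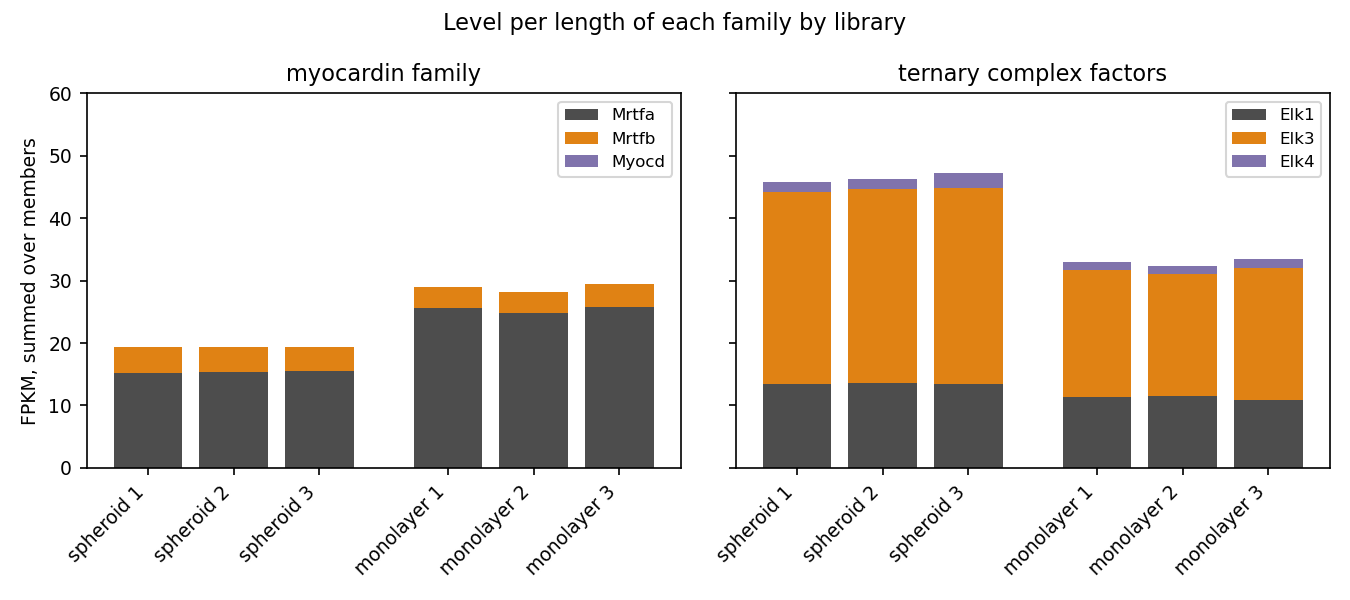
Stacked FPKM of the myocardin family (left) and the ternary complex factors (right) in each library, spheroids before monolayers. The myocardin family sums to 19.4 FPKM in spheroids and 28.9 in monolayers, and the ternary complex factors to 46.5 FPKM in spheroids and 33.0 in monolayers.

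The ratio of 2 members within a library does not depend on library scaling. The Mrtfa to Mrtfb ratio of CPM was 1.95, 2.02 and 2.06 in spheroids, against 3.81, 3.91 and 3.78 in monolayers. Srf to Mrtfb stood at 1.68, 1.70 and 1.76 in spheroids, against 3.52, 3.60 and 3.18 in monolayers. Elk3 to Elk1 was 2.58, 2.61 and 2.69 in spheroids, against 2.05, 1.93 and 2.21 in monolayers. These 3 ratios did not overlap between formats. Each had an exact two-sided permutation p of 0.1, the smallest that 3 against 3 libraries allow, and 0.2 after Benjamini-Hochberg adjustment over 6 pairs. Srf to Mrtfa overlapped, at 0.862, 0.842 and 0.853 in spheroids against 0.923, 0.920 and 0.843 in monolayers (exact p = 0.3, adjusted 0.36). Elk4 to Elk1 and Elk3 to Elk4 overlapped too, with exact permutation p of 0.4 and 0.3 (adjusted 0.4 and 0.36).

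**Figure D3:**
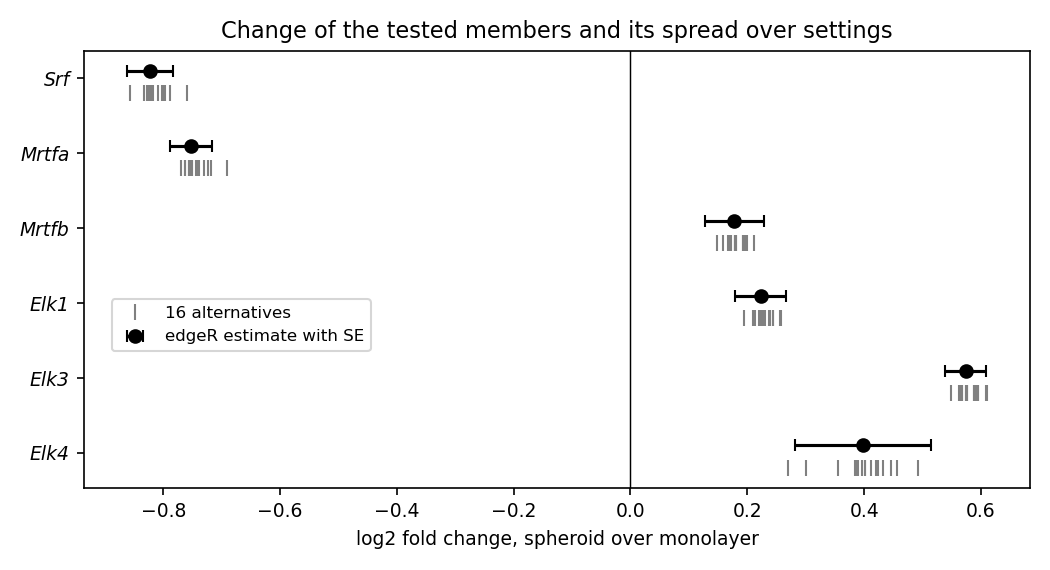
Log2 fold change of spheroids over monolayers for the 6 tested members, as the edgeR estimate with its SE (black) and as 16 alternative settings (grey ticks). No tick crosses 0, and Elk4 has the widest spread, from 0.27 to 0.49.

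Some members share their locus with other genes in GENCODE M21 (GRCm38), and the use of strand in counting is not given in the sources used here. It is therefore not known if reads were told apart where Mrtfa overlaps the opposite-strand gene Sgsm3, Elk3 overlaps Cdk17 and Elk4 overlaps Mfsd4a. Nor is it known for Elk1 and its same-strand neighbour Uxt. Sgsm3 had 1230 reads in spheroids and 974 in monolayers, while Mrtfa had 4291 in spheroids and 7104 in monolayers, a difference of the opposite direction. Uxt, with 598 reads in spheroids and 724 in monolayers, also differed the other way from Elk1. Cdk17 moved the same way as Elk3, with 2534 reads in spheroids and 1937 in monolayers, where Elk3 had 8084 in spheroids and 5335 in monolayers. Mfsd4a moved the same way as Elk4, with 534.6 reads in spheroids and 390.5 in monolayers, where Elk4 had 462.4 in spheroids and 344.9 in monolayers. The deposited counts of Mrtfa and Elk3 were whole numbers in every library, while those of Elk1 and Elk4 had decimals in every library. The part of shared reads in the rises of Elk3 and Elk4 was not tested. Genes without counts here also overlap members. These are a long noncoding and a microRNA gene for Srf, and an antisense gene for Mrtfb. Mrtfa also overlaps a small nuclear RNA gene and a same-strand gene of another type, and Elk4 a same-strand gene. The gene length implied by the deposited counts and FPKM differed by 0.868% between the group means for Srf and by 0.527% for Mrtfa. For Elk4 it was 3539 bases in spheroid replicate 3, against 3869 to 4019 bases in the other libraries.

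Of 24 genes of Ras-ERK signalling to the ternary complex factors, all tested, 11 rose, 7 fell and 6 did not pass, with a median log2 fold change of 0.05 beside 0.00 for all tested genes. That is 45.8% higher and 29.2% lower, beside 37.1% higher and 37.1% lower over all tested genes. The rises were led by feedback inhibitors that ERK activity induces: Dusp4 at 3.01 ± 0.09, Dusp6 at 1.98 ± 0.06 and Spry4 at 1.56 ± 0.09. Dusp4 had 35.1, 39.6 and 36.9 CPM in spheroids, against 4.601, 3.70 and 5.49 CPM in monolayers. Among the kinase and GTPase genes, Braf stood at -0.67 ± 0.05, Nras at -0.31 ± 0.04 and Hras at -0.30 ± 0.04.

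SRF target genes are given by class. Their lists were chosen with earlier results of these data known, and over all tested genes 37.1% rose and 37.1% fell. Cytoskeletal targets of the MRTF branch fell in 26 of 27 tested cases and rose in 1, with a median log2 fold change of -1.04; Vil1 was not tested. Ccn2 and Ccn1, both matricellular genes, stood at -3.09 ± 0.03 and -2.67 ± 0.04, and Cnn2, a calponin gene, at -2.65 ± 0.03. The 1 gene that rose was Itga5, the fibronectin receptor alpha chain, at 0.32 ± 0.03. Genes listed as smooth muscle targets of myocardin fell in 10 of 14 tested cases, rose in 3 and did not pass in 1, with a median of -2.57. Myocd itself was close to undetected in both formats, and which factor acts on these genes was not tested. Cnn1, Actg2 and Acta2 were at -4.13 ± 0.06, -4.09 ± 0.04 and -4.08 ± 0.03, and reads can be shared among actin paralogs. The 3 that rose were Ldb3, a Z-disc gene of striated muscle, at 2.69 ± 0.07, Synpo2 at 1.29 ± 0.08 and Synpo at 0.51 ± 0.03. Immediate early genes of the ternary complex factor branch rose in 16 of 17 cases and fell in 1, with a median of 1.61. Fos had 166.2, 137.2 and 129.2 CPM in spheroids, against 12.5, 10.5 and 9.54 CPM in monolayers (log2 fold change 3.73 ± 0.18). Fosb stood at 3.57 ± 0.23 and Egr3 at 2.68 ± 0.06, and Klf4 was the 1 gene that fell (-1.19 ± 0.04).

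**Figure D4:**
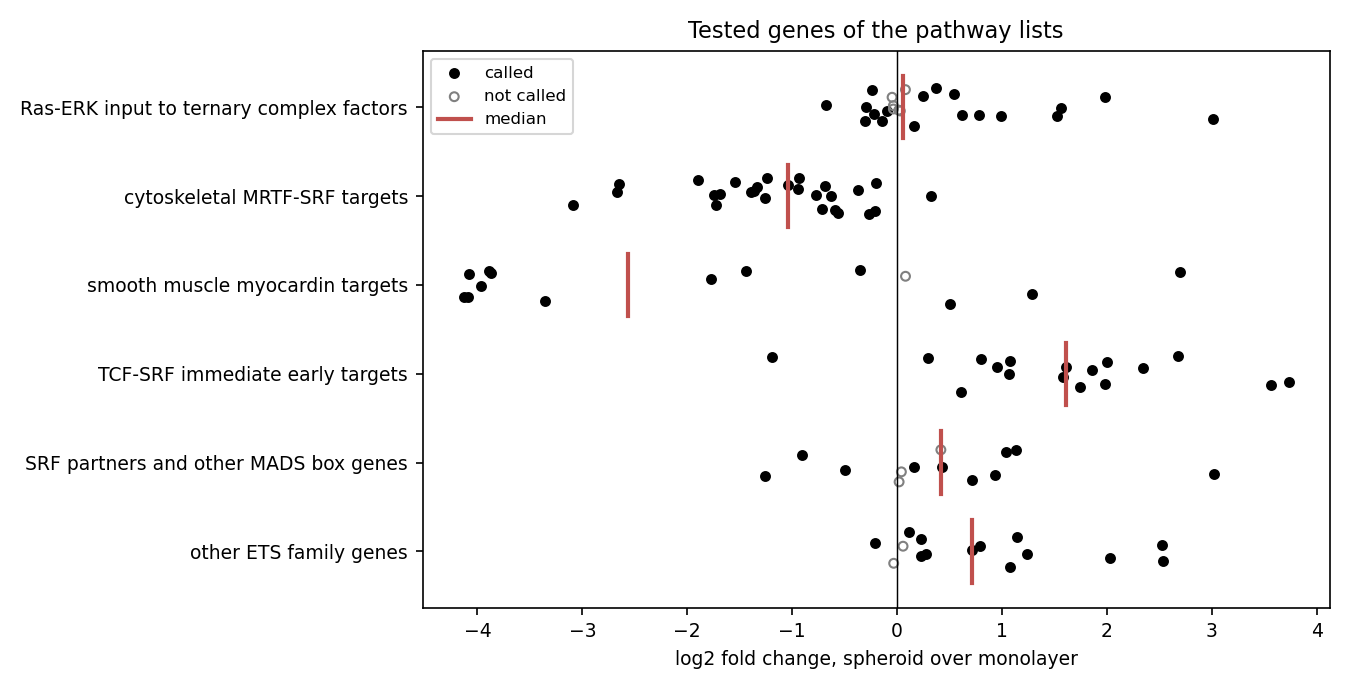
Log2 fold change of spheroids over monolayers for each tested gene of 6 pathway lists, filled where the adjusted p was under 0.05, with a red line at each list's median. Medians lie at -1.04 and -2.57 for the cytoskeletal and smooth muscle targets and at 1.61 for the immediate early targets.

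CArG boxes from the promoter windows of targets in each class are shown to set their letters beside the direction of change. Each is given with 10 bases on either side, on the strand of its gene, from RefSeq GRCm38.p6 windows, with the box in capitals. Cnn2, Actg1, Vcl and Myl9 fell, while Ldb3, Egr2 and Zfp36 rose.
Cnn2: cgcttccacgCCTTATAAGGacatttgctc
Actg1: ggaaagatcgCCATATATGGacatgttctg
Vcl: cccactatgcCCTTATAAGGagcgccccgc
Myl9: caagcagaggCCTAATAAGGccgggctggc
Ldb3: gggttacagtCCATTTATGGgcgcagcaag
Egr2: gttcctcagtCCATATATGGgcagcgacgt
Zfp36: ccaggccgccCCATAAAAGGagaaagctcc
The box of Actg1 (chr11:120348566-120348595) has the same letters as this box of Egr2 (chr10:67537787-67537816), though their log2 fold changes were -1.33 ± 0.03 and 2.00 ± 0.06. Zfp36 (chr7:28379267-28379296, log2 fold change 1.98 ± 0.12) carries the letters of the second box of Srf. So does Fermt2, a cytoskeletal target that fell (log2 fold change -0.69 ± 0.03). The windows of Cnn2 (chr10:79988534-79988563) and Vcl (chr14:20929161-20929190) share their box, with log2 fold changes of -2.65 ± 0.03 and -1.68 ± 0.03. Lima1, a cytoskeletal target with the same box, fell less, at -0.37 ± 0.03. Myl9 (chr2:156775293-156775322) stood at -3.89 ± 0.04. Ldb3 (chr14:34588697-34588726), a smooth muscle list member with a box, stood at 2.69 ± 0.07. A CArG box stood in the windows of 8 of 24 cytoskeletal, 2 of 12 smooth muscle and 2 of 11 immediate early genes whose windows were searched. Genes of these lists without a searched window are not covered. Among the windows searched, 172 tested genes had one, of which 37.2% rose and 39.0% fell. That is near the 36.0% and 37.4% of the 10881 tested genes with a window. The 172 genes had a median log2 fold change of -0.01, as over all windows. Of the 2057 tested genes with CCGGAAG, 24.8% rose and 43.5% fell, and their log2 fold changes had a median of -0.08. These shares are descriptions and were not tested.

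Relatives of the 7 genes were set beside them. Among protein partners of SRF and other MADS box genes, 7 of 13 tested rose, 3 fell and 3 did not pass, with a median of 0.42. The shares were 53.8% higher and 23.1% lower, beside 37.1% higher and 37.1% lower over all tested genes. The MADS box genes Mef2c, Mef2d and Mef2a, all with roles in muscle, rose by 3.02 ± 0.05, 1.13 ± 0.04 and 1.03 ± 0.04 on the log2 scale, so the direction of Srf was not that of its tested MADS box relatives. Csrp2, an LIM protein partner of SRF in smooth muscle, stood at -1.25 ± 0.04, Tead1 at -0.91 ± 0.03 and Prrx2 at -0.50 ± 0.04. Other ETS genes rose in 12 of 15 tested cases and fell in 1, Elf4 (-0.21 ± 0.04), with a median of 0.71. Here the shares were 80% higher and 6.67% lower. Spi1, a myeloid factor gene, Etv1 and Erg, an endothelial factor gene, were at 2.53 ± 0.26, 2.52 ± 0.11 and 2.03 ± 0.11.

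The genes nearest in pattern were taken by the root mean square difference of centred log2 CPM over the 6 libraries, among 10736 genes. For Srf they were Rpsa (0.0199), Atf5 (0.01996) and Nop56 (0.0229), and reads of Rpsa can be shared with its pseudogenes. Mrtfa lay nearest to Galnt10 (0.0113), Parva (0.0157) and Cald1 (0.0184), and Elk3 to Abcc1 (0.0195), Col6a1 (0.0205) and Stat5a (0.0212). All points share the same 6 libraries, and the difference between formats makes up most of each pattern.

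Markers of other cell types moved in the same libraries, and in bulk RNA fewer cells of a type and less RNA per cell cannot be told apart. Over all tested genes 37.1% rose and 37.1% fell. The defining markers of the labelled tissue were present, with periosteal mesenchymal markers summing to 45516 to 47890 CPM in spheroids and 63525 to 64904 CPM in monolayers. Of these 10 markers 7 rose and 3 fell, and their log2 fold changes had a median of 0.27. Col1a1, at 12878 CPM in spheroids and 28314 CPM in monolayers, and Col1a2, at 10038 CPM in spheroids and 20221 CPM in monolayers, made up most of the lower sum. Beside the changes of Srf and the Mef2 genes, which muscle also expresses, all 10 tested of 12 skeletal muscle markers rose, and their sum was 1911 to 2044 CPM in spheroids and 107.6 to 111.1 CPM in monolayers. Myod1 was at 31.9 CPM in spheroids and 2.24 CPM in monolayers, and Myog at 58.9 CPM in spheroids and 2.82 CPM in monolayers. Of the 7 listed cardiac markers 2 of 3 tested rose, with a sum of 180.1 to 195.6 CPM in spheroids and 8.71 to 10.3 CPM in monolayers, and Myh6 had 0 reads in monolayers. Myh7, at 100.7 CPM in spheroids and 3.42 CPM in monolayers, and Tnnt2, at 82.6 CPM in spheroids and 4.58 CPM in monolayers, made up most of that sum. Tnni3 did not pass, and Nppa, Nppb, Myh6 and Nkx2-5 had too few reads to be tested. Beside the smooth muscle targets, mural markers rose in 7 of 8 cases and fell in 1, summing to 854.0 to 884.6 CPM in spheroids and 216.8 to 224.2 CPM in monolayers. Des, which is also in the skeletal muscle list, stood at 476.8 CPM in spheroids and 21.5 CPM in monolayers and made up most of that rise. Rgs5 was at 7.27 CPM in spheroids and 4.21 CPM in monolayers, and Myh11, which is also in the smooth muscle target list, at 1.33 CPM in spheroids and 13.7 CPM in monolayers.

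Beside Elk3 and the ETS genes, which endothelial cells express, all 12 endothelial markers rose, with a sum of 405.1 to 425.1 CPM in spheroids and 71.1 to 73.0 CPM in monolayers. Pecam1 stood at 76.7 CPM in spheroids and 11.8 CPM in monolayers, and Cdh5 at 101.9 CPM in spheroids and 16.5 CPM in monolayers. Erg is in both the endothelial and the ETS list. Macrophage and leukocyte markers rose in 8 of 9 tested cases out of 10 listed, summing to 140.5 to 149.7 CPM in spheroids and 31.7 to 33.6 CPM in monolayers, with Ptprc at 2.89 CPM in spheroids and 1.37 CPM in monolayers. All 6 tested of 8 osteoclast markers rose, with a sum of 930.0 to 941.3 CPM in spheroids and 181.0 to 186.2 CPM in monolayers, and Dcstamp had 0 reads in monolayers. Ctsk, which is also in the periosteal mesenchymal list, carried most of that sum, at 707.1 CPM in spheroids and 179.2 CPM in monolayers. All 6 tested of 7 Schwann cell markers rose, at 94.5 to 97.2 CPM in spheroids and 19.9 to 22.1 CPM in monolayers, with Sox10 at 28.7 CPM in spheroids and 4.57 CPM in monolayers. None of the 6 epithelial markers had enough reads to be tested, with a sum of at most 0.363 CPM in spheroids and 0.418 CPM in monolayers, and Krt14 and Krt8 had 0 reads in all libraries. The part of these cell types in the changes of the 7 genes and their targets was not tested.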

How the data were processed

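Total RNA of 3 spheroid and 3 monolayer libraries was sequenced on the DNBSEQ platform, per the labels' protocols. HISAT and GRCm38.p6 are named in the submitters' processing notes. How reads were counted, with which annotation and strand setting, is not given in the sources used here. Deposited values are expected counts for each gene, estimated reads that need not be whole, and FPKM values, scaled by gene length and library size. Counts were rounded and filtered with filterByExpr at a minimum count of 10, which left 13708 genes. The test was the robust quasi-likelihood F test of edgeR 4.0.16 under R 4.3.3, with TMM factors of 0.985 to 1.02. P-values were Benjamini-Hochberg adjusted across the whole table, with a threshold of 0.05. SEs of log2 fold changes come from the F statistic. CPM is scaled by TMM-adjusted library size.

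The genes, the lists and the tests were chosen with earlier results of these data known, so list counts are descriptions. All 7 members are named, with the 3 largest rises and the 3 largest falls among called genes of each of 6 pathway lists. A further list fixed with them is not reported here. The genes whose promoter sequence is shown were chosen after their values were seen. Between replicate libraries the mean chi-square ratio was 1.90 to 2.91, more than the 1 of pure counting noise, so each library was counted once. The scripts were tested on simulated counts, with 50 of 13567 genes changed at each fold. Changes of 1.2-fold were called for 66% of these genes and changes of 1.5-fold for 96%, while 0.105% of unchanged genes were called. Far fewer genes changed there than were called in these data, so the simulation does not test the scaling under that setting. Alternatives used limma 3.58.1 and DESeq2 1.42.0, other scalings and filters, FPKM with pseudocounts of 1 and 0.1, and leaving out each library.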

Additional observations from a re-analysis of the deposited data

How the results depend on the processing

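All 6 tested members kept their direction under each of 16 alternatives: RLE scaling, library totals alone, library size without the 10 most abundant genes, no filter, a minimum count of 30, DESeq2, limma-voom, limma on log2(FPKM + 1) and log2(FPKM + 0.1), a replicate block and leaving out each library. The log2 fold change ranged from -0.86 to -0.76 for Srf, -0.77 to -0.69 for Mrtfa, 0.15 to 0.21 for Mrtfb, 0.19 to 0.26 for Elk1, 0.55 to 0.61 for Elk3 and 0.27 to 0.49 for Elk4. Without spheroid replicate 3, Elk4 was at 0.27 and no longer passed (adjusted p = 0.0549, against 0.000662 to 0.0549 over all 16); the cause was not tested. Counts of called members and of the 6 pathway lists reported stayed within 1.5 times under all 16. No label says that libraries of the same number share an animal or batch, so the numbers were not taken as pairs. Same-numbered libraries deviated from their group means with correlations of -0.0166, 0.109 and -0.00881, against -0.124 to 0.112 for libraries of different number. The replicate block left 4 members higher and 2 lower. Depth limits Myocd, which had at most 4.01 reads in a library, and the permutation tests over 3 against 3 libraries cannot go below 0.1.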
